A study of Mus musculus with 58 samples.

Results

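The comparison set 8 male mice with repeated closed head injury against 5 male sham mice, all given saline vehicle, and covered 13 of the 58 libraries analysed. Members were taken from the labels alone, as every library marked male, chronic and vehicle, and no measured value entered the choice. Injury (5xCHI) meant 1 closed head impact per day on 5 days, with saline injected 30 min after each. Sham mice went through 5 daily sham procedures with the same injections. Both groups were C57BL/6J males that entered the experiment at 2 to 4 months of age. Female vehicle mice, and males given the p38 inhibitor SB239063 at 20 mg per kg, are used only where named. They entered at the same age and had the same schedule of procedures and injections. Tissue was the somatosensory cortex, taken about 1 month after the last procedure, a time described as about 18 or 34 days, with no mouse assigned to either. No source used here gives the side of the cortex relative to the impact. Sham mice shared the daily procedures and injections with the injured mice, and no untreated mice were analysed here. The mice came from 4 cohorts, M1 to M4, each with 2 injured mice and 1 sham mouse, except M3, which had 2 sham mice.

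Closed head injury without a skull opening is used in mice to model repeated concussion. In the cortex, neurons switch on immediate early transcription factors within minutes of firing, and these in turn drive slower effector genes of synapses and growth factor signalling. Glucocorticoid hormones, released under stress, act through the nuclear receptor encoded by Nr3c1 and induce a common set of genes in most cell types, among them kinases, phosphatases, metallothioneins and clock genes. Oligodendrocytes carry the myelin genes, and microglia and astrocytes carry the genes followed most often after brain trauma.

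Total counts over the 9636 listed genes lay between 28344848 and 47074849 per library, within the range of 28316280 to 49158277 seen over all 58 libraries. Cortical cell types were represented by their markers: 11 of 12 excitatory neuron, 14 of 15 inhibitory neuron, 15 of 15 astrocyte, 21 of 21 myelin, 13 of 15 microglial and 14 of 16 endothelial genes were measured. The listed genes of choroid plexus (10), red blood cells (6), peripheral leukocytes (12) and border macrophages (7) were not analysed here. Both libraries that stood apart were sham. Sham replicate 2 (cohort M3) lay at 27.8 on the first principal component, which held 34.4% of the variance and had the myelin genes Mobp, Gjc3, Mal and Ermn at its opposite end. Sham replicate 4 (cohort M1) lay at 19.9 on the second component, which held 22.2% of the variance and had Arc, Junb and Nr4a1 at its opposite end. The median Spearman correlation with the other libraries was 0.9694 for sham replicate 2 and 0.9766 for sham replicate 4, against 0.9846 to 0.9891 for the other 11. Of the 43 gene lists described below, 13 had a median log2 fold change of the other sign without sham replicate 2, 12 without replicate 4 and 20 without both. Values without one or both of these libraries are given where they differ most. Without sham replicate 4 cohort M1 has no sham mouse, and its injured mice no longer inform the difference.

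No gene passed the test of injury against sham. By edgeR's quasi-likelihood test with the cohort as a block, 0 of 9636 genes were higher and 0 were lower at an adjusted p under 0.05 (0% in either direction), and 442 genes (4.59%) had an unadjusted p under 0.05. Of these, 160 (1.66%) were higher and 282 (2.93%) were lower in injured mice. DESeq2 called 3 genes at an adjusted p under 0.05, with 502 at an unadjusted p under 0.05, and limma voom with quality weights called 1, with 612. The differences below are therefore values with their errors, and none passed edgeR's test. For 98.4% of genes both ends of the 95% interval lay within 1.5-fold up or down of no change. Over all genes the median log2 fold change was -0.00745, and 47.2% of genes were above 0 and 52.8% below it. Ranges of the groups did not overlap for 6 higher genes (0.0623%) and 2 lower genes (0.0208%).

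The smallest p belonged to the metallothionein gene Mt2, followed by Cdkn1a. Metallothioneins are small cysteine-rich proteins that bind zinc and copper, and their genes respond to metals through the factor MTF1 and to glucocorticoids. Mt2 was at 34.7 to 48.6 CPM in injured mice, with a median of 40.0, and at 66.6, 45.8, 50.4, 51.5 and 46.7 CPM in sham replicates 1 to 5. The groups overlapped slightly, as 6 of the 8 injured mice lay below every sham mouse and sham replicate 1 stood above all the others. The log2 fold change of Mt2 was -0.37 ± 0.064 (SE), with an unadjusted p of 3.94e-05 and an adjusted p of 0.379 by edgeR. Mt2 was lower in each cohort, by -0.41 in M1, -0.28 in M2, -0.31 in M3 and -0.46 in M4 on the log2 scale. It was called by DESeq2 (log2 fold change -0.36, adjusted p = 0.000671) and by limma voom with quality weights (-0.38, adjusted p = 0.0419). With any 1 of the 13 libraries left out, Mt2 stayed between -0.39 and -0.34, with an adjusted p by edgeR of 0.254 to 0.96.

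Mt1, the neighbouring metallothionein gene, was at 63.0 to 88.1 CPM in injured mice, with a median of 77.8, and at 106, 94.0, 86.6, 89.4 and 81.4 CPM in sham replicates 1 to 5. The groups overlapped, with 5 of the 8 injured mice below the lowest sham mouse and sham replicate 1 again the highest. Its log2 fold change was -0.28 ± 0.073 (SE), with an unadjusted p of 0.00158 and an adjusted p of 0.781 by edgeR. The bases just upstream of both genes are shown because both were lower in all 4 cohorts, as were 537 genes (5.57%) of the table. The windows are the 250 bases before the RefSeq start, in GRCm38.p6 coordinates. Both genes lie on chromosome 8 on the plus strand, Mt2 at chr8:94172368-94172617 and Mt1 at chr8:94178839-94179088. Capitals mark the letters TGCNCNC on either strand, where N is any base. This pattern is looser than the metal response element core that MTF1 binds, so a match need not be such a core.
Mt2: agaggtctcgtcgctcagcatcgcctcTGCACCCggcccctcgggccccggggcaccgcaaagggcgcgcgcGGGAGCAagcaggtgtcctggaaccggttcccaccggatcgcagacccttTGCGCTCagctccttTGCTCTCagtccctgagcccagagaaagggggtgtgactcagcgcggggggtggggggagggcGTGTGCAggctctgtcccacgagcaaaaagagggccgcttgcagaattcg
Mt1: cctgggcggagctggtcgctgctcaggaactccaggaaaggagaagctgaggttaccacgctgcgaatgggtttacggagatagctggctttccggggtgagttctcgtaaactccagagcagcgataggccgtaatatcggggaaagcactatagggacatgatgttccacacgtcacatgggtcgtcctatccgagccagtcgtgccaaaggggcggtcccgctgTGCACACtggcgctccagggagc
The pattern was found 5 times before Mt2 and 1 time before Mt1. Among 27025 promoters of the same length 43.8% hold it at least 1 time and 4.61% hold it 3 times or more. For genes in the count table these shares are 54.5% and 7.42%. Bases outside the windows were not searched, and a single annotated start was used per gene. The numbers of matches therefore depend on where each window lies and do not compare the whole promoters of Mt2 and Mt1. The full glucocorticoid response element was found 1 time before Mt1, in lower case above, and 0 times before Mt2. It was in 0.381% of all promoters and 0.219% of those of genes in the count table. Of the glucocorticoid response list described below, 1 of 14 promoters held it, that of Mt1, as did 1 of 10 of the immediate early list. TGCNCNC was found in 7 of 14 promoters of the glucocorticoid response list. The pattern was chosen for display after the values of these genes had been seen, and a match of letters is a description and not a shown site.

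Cdkn1a encodes p21, an inhibitor of cyclin-dependent kinases that p53 and glucocorticoids both induce. It was at 16.0 to 23.9 CPM in injured mice, with a median of 19.4, and at 32.7, 32.0, 27.2, 19.7 and 23.1 CPM in sham replicates 1 to 5. Sham replicates 4 and 5 lay within the injured range, and the other sham mice lay above every injured mouse. The log2 fold change was -0.51 ± 0.098 (SE), with an unadjusted p of 0.00012 and an adjusted p of 0.58 by edgeR, and DESeq2 called it (-0.50, adjusted p = 0.00991). Cohort differences on the log2 scale were -0.26 in M1, -0.27 in M2, -0.66 in M3 and -0.69 in M4. Without sham replicate 2 the log2 fold change was -0.42, without replicate 4 it was -0.57, and without both it was -0.47. Its promoter, at chr17:29090729-29090978 on the plus strand of GRCm38.p6, is shown with the decamer of the p53 site in capitals on either strand.
Cdkn1a: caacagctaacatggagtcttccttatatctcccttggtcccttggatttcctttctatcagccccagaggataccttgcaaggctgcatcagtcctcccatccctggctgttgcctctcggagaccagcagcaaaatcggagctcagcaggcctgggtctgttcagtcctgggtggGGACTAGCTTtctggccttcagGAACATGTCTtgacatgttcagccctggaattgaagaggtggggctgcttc
This p53 decamer occurred 2 times there and in 7.18% of all promoters. The wider p53 list did not move with Cdkn1a: of 16 measured genes of p53 targets and cell cycle arrest, 11 were lower and 5 higher, with a median log2 fold change of -0.028 and 1 gene, Cdkn1a, at an unadjusted p under 0.05. Its next members were the apoptosis gene Bax at -0.20 ± 0.11, or -0.11 without sham replicates 2 and 4, and the stress-induced mTORC1 inhibitor gene Sesn2 at -0.17 ± 0.085.

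The remaining lower genes of smallest p were of diverse function. Ccnd3, encoding cyclin D3 of the G1 phase, was at 18.0 to 23.2 CPM in injured mice, with a median of 20.9, and at 24.2, 30.0, 26.5, 23.3 and 24.5 CPM in sham replicates 1 to 5. All 8 injured mice lay below all 5 sham mice, narrowly so for the highest injured mouse. The log2 fold change of Ccnd3 was -0.30 ± 0.083 (SE; unadjusted p = 0.00296, adjusted p = 0.781 by edgeR). Dxo, an RNA decapping enzyme gene named because its ranges also did not overlap, was at -0.33 ± 0.11. P4ha2, which encodes a subunit of the prolyl hydroxylase of collagen, was at -0.31 ± 0.089, the mitochondrial nucleotide hydrolase gene Hint2 at -0.41 ± 0.11, and Pick1, which encodes a scaffold that traffics AMPA receptors, at -0.27 ± 0.081.

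Among the higher genes Prps2, which encodes a phosphoribosyl pyrophosphate synthetase at the start of nucleotide synthesis, had the smallest p. It was at 33.3 to 39.9 CPM in injured mice, with a median of 35.0, and at 31.2, 29.8, 28.0, 27.8 and 31.5 CPM in sham replicates 1 to 5. Every injured mouse lay above every sham mouse. Its log2 fold change was 0.28 ± 0.062 (SE; unadjusted p = 0.000374, adjusted p = 0.781 by edgeR), it was between 0.20 and 0.35 in the 4 cohorts, and DESeq2 called it (0.29, adjusted p = 0.0191).

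Rgs5, a regulator of G protein signalling and a marker of pericytes, was at 118 to 123 CPM in injured mice, with a median of 121, and at 113, 94.8, 103, 108 and 99.5 CPM in sham replicates 1 to 5. The injured mice formed a narrow band above all sham mice. Rgs5 had a log2 fold change of 0.20 ± 0.058 (SE). Of the 7 measured mural cell genes 4 were higher, with a median log2 fold change of 0.073. Without sham replicates 2 and 4 together that median was -0.061, whereas Rgs5 itself was at 0.19. Mcam, a mural cell adhesion gene, was at 0.43 ± 0.18 (SE) with all libraries and at 0.25 without sham replicate 2, which had 11.0 CPM against 23.8 to 29.7 CPM in the other sham mice.

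Rab30, a Golgi Rab GTPase gene, was at 49.4 to 63.7 CPM in injured mice, with a median of 54.4, and at 44.8, 37.1, 47.8, 45.1 and 46.8 CPM in sham replicates 1 to 5. The groups did not overlap, and sham replicate 2 was the lowest. Rab30 had a log2 fold change of 0.31 ± 0.082 (SE; unadjusted p = 0.00202, adjusted p = 0.781 by edgeR) and 0.24 without sham replicate 2. Further higher genes were Cdh18, a neuronal cadherin gene, at 0.25 ± 0.068, Cadps2, which acts in dense core vesicle release, at 0.29 ± 0.083, and the mitochondrial RNA helicase gene Supv3l1 at 0.23 ± 0.072. Arhgap42 was at 0.36 ± 0.11 and Ypel2 at 0.25 ± 0.079. In cohort M1 the differences of Ypel2 and Arhgap42 were 0.49 and 0.80, and in M2 they were -0.061 and 0.013. The non-overlapping higher genes also held Cdk19, a kinase of the Mediator complex, at 0.20 ± 0.069, the diphthamide synthesis gene Dph6 at 0.22 ± 0.076 and Sephs1 at 0.18 ± 0.066, all chosen after their values were seen.

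**Figure D1:**
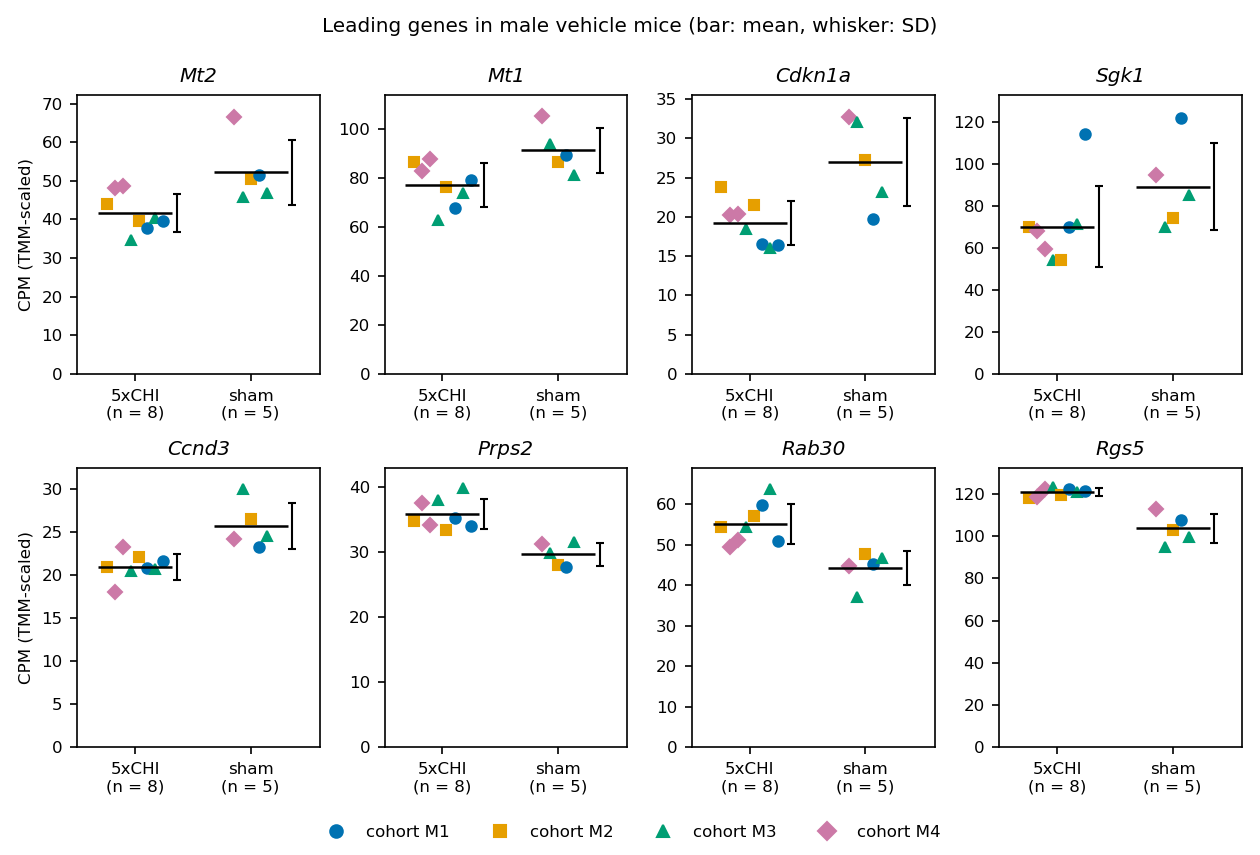
TMM-scaled CPM of 8 leading genes in 5xCHI (left, n = 8) and sham (right, n = 5) male vehicle mice, 1 point per mouse, with shape and colour for the cohort, a bar at the mean and a whisker of 1 SD. Ccnd3 in injured mice lies below the sham range, Prps2, Rab30 and Rgs5 lie above it, and Mt2, Mt1, Cdkn1a and Sgk1 overlap with it.

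Genes induced by glucocorticoids were lower as a group. Of 15 measured genes out of 20 listed, 14 were below 0 and 1, Errfi1, was above it, against 52.8% of all genes below 0. The median log2 fold change was -0.26, beside -0.00745 over all genes. At an unadjusted p under 0.05, 8 of the 15 were lower and 0 higher, against 2.93% lower over all genes, and 8 were lower in all 4 cohorts, against 5.57%. They include Mt2, Mt1 and Cdkn1a described above. Averaged over the list, injured mice had a mean log2 CPM of 5.29 to 5.55 and sham mice one of 5.57 to 5.72, so the groups did not overlap, by a narrow margin. Of the 43 lists with measured genes, 1 list (2.33%) had groups that did not overlap, and it was this one. Earlier results of these data were known when the list was chosen, so these counts describe it and do not test it.

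Sgk1, a kinase gene that responds to glucocorticoids within hours, was at 54.0 to 114 CPM in injured mice, with a median of 68.9, and at 94.5, 70.1, 74.0, 122 and 85.0 CPM in sham replicates 1 to 5. The groups overlapped, and the highest injured mouse and the highest sham mouse both belong to cohort M1, while 6 injured mice lay below every sham mouse. Within cohorts Sgk1 was lower by -0.45, -0.27, -0.31 and -0.57 on the log2 scale in M1 to M4, and the fitted log2 fold change was -0.39 ± 0.12 (SE; unadjusted p = 0.00446, adjusted p = 0.781 by edgeR). Tsc22d3, which encodes the glucocorticoid-induced leucine zipper protein, was at -0.29 ± 0.09, Fkbp5, a co-chaperone of the receptor, at -0.25 ± 0.086, Ddit4, an inhibitor of mTORC1, at -0.31 ± 0.12, and Nfkbia, the inhibitor of NF-kB, at -0.31 ± 0.11. Without sham replicates 2 and 4 Tsc22d3 was at -0.19 and Nfkbia at -0.17. Tsc22d3, Fkbp5 and Ddit4 were taken up after their values were seen, as further members at an unadjusted p under 0.05.

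Both main receptor genes for these hormones were above 0, within a list of 5 receptor genes of which 2 were higher and 3 lower. Nr3c1, the glucocorticoid receptor gene, was at 163 to 192 CPM in injured mice, with a median of 176, and at 134, 160, 180, 164 and 164 CPM in sham replicates 1 to 5. The ranges overlapped, with 4 injured mice above every sham mouse and sham replicate 1 the lowest. The log2 fold change was 0.16 ± 0.066 (SE; unadjusted p = 0.0315, adjusted p = 0.781 by edgeR), and that of the mineralocorticoid receptor gene Nr3c2 was 0.16 ± 0.075. The median of the glucocorticoid response list was -0.25 without sham replicate 2, -0.26 without replicate 4 and -0.23 without both, and it lay between -0.30 and -0.23 with any 1 library left out. The 15 measured clock genes, of which 10 were lower, had a median of -0.07. No source used here gives the time of day at collection, and its part in these values was not tested.

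Immediate early transcription factor genes were lower in cohorts M2 to M4 and higher in M1. All 13 measured genes of 21 listed were below 0, with a median log2 fold change of -0.30, against 52.8% of all genes below 0. At an unadjusted p under 0.05, 5 were lower with all libraries, against 2.93% of all genes, 3 without sham replicate 2, 10 without replicate 4 and 4 without both. The number over all genes, in either direction, also changed. It was 442 with all libraries, 295 without sham replicate 2, 654 without replicate 4 and 716 without both. The mean over the list differed between injured and sham mice by 0.33 in M1, -0.21 in M2, -0.55 in M3 and -0.50 in M4 (log2 CPM). The sham mouse of M1 is replicate 4, whose list mean of 5.40 was the lowest of the 13 libraries, while sham replicate 2 of M3, at 6.62, was the highest. Without sham replicate 2 the median was -0.20 with 11 of 13 lower, without replicate 4 it was -0.39 with 13 of 13 lower, and without both it was -0.35 with 13 of 13 lower.

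Npas4, a transcription factor gene induced by calcium entry in neurons, was at 9.72 to 48.9 CPM in injured mice, with a median of 27.1, and at 60.1, 30.6, 30.4, 11.8 and 33.1 CPM in sham replicates 1 to 5. Levels followed the cohort in both groups, lowest in M1 and highest in M4, so the ranges overlapped widely. Within cohorts the log2 differences were -0.19, -0.51, -0.076 and -0.38 in M1 to M4, and the fitted log2 fold change was -0.27 ± 0.089 (SE; unadjusted p = 0.00814, adjusted p = 0.781 by edgeR). Its promoter is shown because cyclic AMP response elements drive many activity-induced genes. It lies at chr19:4989972-4990221 on the minus strand of GRCm38.p6, with the element's core TGACG in capitals on either strand.
Npas4: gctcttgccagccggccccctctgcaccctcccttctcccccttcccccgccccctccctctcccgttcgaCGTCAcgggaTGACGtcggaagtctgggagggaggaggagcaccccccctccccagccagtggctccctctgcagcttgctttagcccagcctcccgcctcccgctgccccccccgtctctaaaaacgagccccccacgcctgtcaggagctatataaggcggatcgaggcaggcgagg
The core occurred 2 times there. It was found in 6 of 10 promoters of the immediate early list and in 8 of 13 of the effector list. These stand beside 17.9% of all promoters and 28.9% of promoters of genes in the count table. The full cyclic AMP response element was found 0 times before Npas4 and in 0 of 10 promoters of the immediate early list. It was found in 4 of 13 of the effector list, beside 1.62% of all promoters and 3.0% of promoters of genes in the count table. The pattern TGCNCNC was found in 8 of 10 and 6 of 13 promoters of these lists, beside 54.5% for genes in the count table.

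Egr3, a zinc finger factor gene, was at 147 to 257 CPM in injured mice, with a median of 179, and at 243, 245, 238, 151 and 258 CPM in sham replicates 1 to 5. Injured replicate 1 was high and sham replicate 4 was low, and apart from these the groups were separate. The log2 fold change was -0.34 ± 0.12 (SE), or -0.47 without sham replicate 4. Fosl2, a member of the AP-1 family, was at -0.36 ± 0.13 and lower in all 4 cohorts, and Jund, another AP-1 gene, was at -0.40 ± 0.18. For Jund sham replicate 2 stood at 127 CPM against 73.1 to 79.1 CPM in the other sham mice, and without it the log2 fold change was -0.20. Egr4, the most negative gene of the list and chosen after its value was seen, was at -0.67 ± 0.31, and between -1.02 and -0.37 with any 1 library left out.

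Slower effectors of neuronal activity followed the same cohorts. Of 18 measured genes out of 22, 15 were lower and 3 higher, against 52.8% of all genes below 0. At an unadjusted p under 0.05, 5 were lower, against 2.93% of all genes. That number was 2 without sham replicate 2, 9 without replicate 4 and 5 without both. Over all genes the number in either direction also changed in these sets, as given for the immediate early genes. The median log2 fold change was -0.17, or -0.14 without sham replicate 2, -0.26 without replicate 4 and -0.21 without both. Nptx2, a pentraxin gene that clusters AMPA receptors at synapses, was at 33.0 to 59.8 CPM in injured mice, with a median of 47.0, and at 79.9, 66.8, 58.3, 45.6 and 45.5 CPM in sham replicates 1 to 5. Sham replicates 1 and 2 lay above every injured mouse and the other 3 sham mice within the injured range. Nptx2 had a log2 fold change of -0.41 ± 0.14 (SE; unadjusted p = 0.00894, adjusted p = 0.781 by edgeR), with cohort differences from -0.82 in M4 to 0.14 in M1. Vgf, a secreted neuropeptide precursor gene, was at -0.38 ± 0.15, or -0.25 without sham replicate 2, the DNA damage and activity gene Gadd45b at -0.34 ± 0.14, or -0.22 without sham replicate 2, and Pcsk1, a prohormone convertase gene, at -0.19 ± 0.072.

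**Figure D2:**
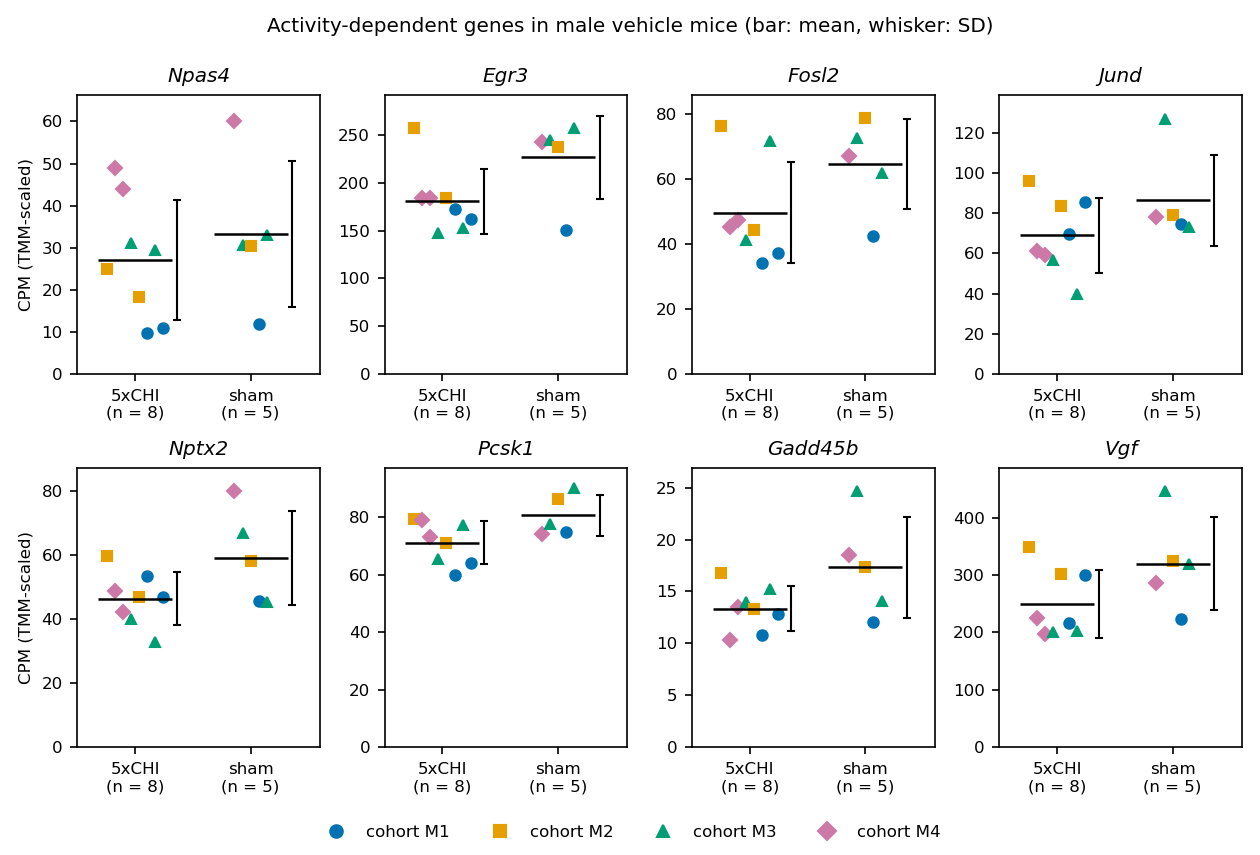
TMM-scaled CPM of 4 immediate early genes (top) and 4 activity-induced effector genes (bottom) in 5xCHI (left, n = 8) and sham (right, n = 5) male vehicle mice, drawn as 1 point per mouse by cohort with the mean and SD. The M1 mice are low in both groups for Npas4, and the sham mouse of M1 is low for Egr3, Fosl2 and Gadd45b. For Fosl2 and Gadd45b the injured M1 mice average lower still on the log2 scale.

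Myelin genes were higher, with a smaller difference once 1 sham library was left out. All 21 measured genes were above 0, with a median log2 fold change of 0.27 and 4 at an unadjusted p under 0.05, against 1.66% higher over all genes. That number was 0 without sham replicate 2, 7 without replicate 4 and 4 without both. Over all genes, in either direction, it was 442 with all libraries, 295 without sham replicate 2, 654 without replicate 4 and 716 without both. The list mean differed by 0.85 in cohort M3, but by -0.024 in M1, 0.09 in M2 and 0.08 in M4 (log2 CPM). Sham replicate 2 of M3 had a list mean of 6.29 log2 CPM, against 7.30 to 7.81 in the other sham mice and 7.17 to 8.10 in injured mice. Without it the median was 0.10, with 21 of 21 still above 0, and without sham replicates 2 and 4 together it was 0.16, with 20 of 21 above 0. In bulk tissue fewer cells of a type and less RNA per cell cannot be told apart, here and for every cell type list below.

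Ermn, which encodes a cytoskeletal protein of mature oligodendrocytes, was at 76.0 to 176 CPM in injured mice, with a median of 105, and at 116, 35.7, 86.7, 88.2 and 81.2 CPM in sham replicates 1 to 5. Sham replicate 2 was the only library below 76.0 CPM, and the other sham mice lay within the injured range. Ermn had a log2 fold change of 0.44 ± 0.19 (SE), or 0.25 without sham replicate 2. Cryab, a small heat shock protein gene of oligodendrocytes and astrocytes, was at 0.20 ± 0.079 and higher in all 4 cohorts, or at 0.11 without sham replicates 2 and 4. Car2, which encodes carbonic anhydrase, was at 0.22 ± 0.096, and Enpp2, the autotaxin gene that oligodendrocytes and choroid plexus express, was at 0.22 ± 0.098. Without sham replicate 2 these were 0.14 for Car2 and 0.15 for Enpp2. Oligodendrocyte precursor and lineage genes had a median of 0.022, with 7 of 12 higher, or -0.020 without sham replicate 2.

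Microglial and immune genes lay near the median of all genes. Of 13 homeostatic microglia genes 7 were higher, with a median log2 fold change of 0.0024 and 0 at an unadjusted p under 0.05. The purinergic receptor gene P2ry12, which marks resting microglia, was at 26.8 to 38.4 CPM in injured mice, with a median of 33.1, and at 32.6, 25.3, 30.3, 31.5 and 24.6 CPM in sham replicates 1 to 5. The ranges overlapped, and its log2 fold change was 0.14 ± 0.097 (SE), beside -0.12 ± 0.11 for Tmem119, another microglial marker, which was at -0.044 without sham replicate 2. Disease-associated microglia genes had a median of -0.027, or 0.037 without both libraries, with 12 of 22 measured, and Apoe, which astrocytes and activated microglia make, was at -0.24 ± 0.11, or -0.11 without sham replicate 2. Complement genes had a median of -0.069, with 6 of 14 measured, and C1qc, which encodes a chain of C1q, was at -0.11 ± 0.089, or -0.028 without sham replicate 2.

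Of 12 measured interferon and antigen presentation genes 10 were lower, with a median of -0.04 and 0 at an unadjusted p under 0.05. Tap2, a subunit of the peptide transporter, was at -0.22 ± 0.12 and Tapbp, which loads peptides, at -0.16 ± 0.084, or -0.074 without both libraries. The 10 measured of 25 cytokine and NF-kB genes had a median of -0.023, with Nfkbia the only one at an unadjusted p under 0.05. The remaining listed genes were not analysed here.

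Astrocyte genes were mixed. Of 15 identity genes 11 were lower, with a median of -0.035, among them the gap junction gene Gjb6 at -0.20 ± 0.078 and Aldh1l1, an enzyme gene used as a general astrocyte marker, at -0.19 ± 0.075, which was lower in all 4 cohorts. Without sham replicates 2 and 4 Gjb6 was at -0.14 and Aldh1l1 at -0.11. Gfap, the intermediate filament gene of reactive astrocytes, was at 136 to 219 CPM in injured mice, with a median of 166, and at 146, 105, 184, 175 and 104 CPM in sham replicates 1 to 5. The 2 lowest values were sham replicates 2 and 5, both of cohort M3, and 1 injured mouse lay above all sham mice. Its log2 fold change was 0.20 ± 0.11 (SE; unadjusted p = 0.101, adjusted p = 0.781 by edgeR), with cohort differences of -0.17 in M1, -0.15 in M2, 0.56 in M3 and 0.43 in M4. Vim, another filament gene of reactive astrocytes and of vessels, was at -0.18 ± 0.089, or -0.11 without sham replicate 2. The 7 measured of 21 reactive astrocyte genes had a median of 0.064, or 0.15 without sham replicate 2 and 0.012 without replicate 4. Endothelial genes had a median of 0.025, with 8 of 14 higher, or -0.037 without both libraries.

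Among receptors and channels, GABA receptor genes had the highest median. Besides GABA-A subunits, which form chloride channels, the list holds the GABA-B receptor genes Gabbr1 and Gabbr2. Of 12 measured genes 9 were higher, with a median log2 fold change of 0.11 and 3 at an unadjusted p under 0.05, against 1.66% of all genes higher at that threshold. That number was 1 without sham replicate 2, 2 without replicate 4 and 2 without both. The number over all genes, in either direction, also changed in these sets, as given for the immediate early and myelin genes. Gabra4, an alpha subunit of extrasynaptic receptors, was at 115 to 152 CPM in injured mice, with a median of 129, and at 112, 119, 116, 127 and 109 CPM in sham replicates 1 to 5. The groups overlapped, with 5 of 8 injured mice above every sham mouse, and the gene was higher in all 4 cohorts, as were 6.66% of all genes. Its log2 fold change was 0.14 ± 0.062 (SE; unadjusted p = 0.0422, adjusted p = 0.781 by edgeR) and 0.15 without sham replicates 2 and 4.

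Gabrb2, a beta subunit gene, was at 0.31 ± 0.14 with all libraries and at 0.019 without sham replicates 2 and 4. Sham replicate 4 had 77.0 CPM of it and the other sham mice 105 to 188 CPM. The list median without both was 0.036, with 9 of 12 higher. Glutamate receptor genes had a median of 0.066 with all libraries and -0.057 without both.

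Channel genes were mixed in sign. Kcnj10, the inward rectifier gene of astrocytes that clears potassium, was at 0.22 ± 0.091, or 0.13 without both libraries. Kcnc4, a voltage-gated potassium channel gene, was at -0.20 ± 0.087, or -0.13 without both. Scn1a, the sodium channel gene of fast-spiking interneurons, was at 0.28 ± 0.11, or 0.12 without both libraries, and the calcium channel subunit gene Cacnb4 at 0.18 ± 0.078, or 0.09 without both. Scn4b, a sodium channel beta subunit gene, was at 0.37 ± 0.16 with cohort differences of 1.02 in M1 and 0.063 in M4, and at 0.14 without both libraries. Kcna1, a dendrotoxin-sensitive potassium channel gene of axons, was at 0.35 ± 0.20 with all libraries and at -0.016 without both. Of 13 neuropeptide genes 11 were lower, with a median of -0.061, or 0.053 without both. Sst, the somatostatin gene of a class of interneurons, was at -0.25 ± 0.097, or -0.12 without both, and Cck, the cholecystokinin gene, at -0.34 ± 0.20, or -0.16 without sham replicate 2 and -0.20 without both.

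Cortical layer genes varied with the same 2 libraries. Of 12 deep layer genes 10 were higher, with a median of 0.061, or -0.0026 without both, and Fezf2, a factor of layer 5 projection neurons, was at -0.29 ± 0.12. Upper layer genes had a median of 0.084, or -0.025 without sham replicate 4. Excitatory neuron genes had one of 0.028, or -0.011 without sham replicate 2, and inhibitory neuron genes one of -0.0089, or 0.0052 without sham replicate 2. In cohort M1 the mean log2 CPM of striatal genes was 6.75 in injured replicate 6 and 5.76 in injured replicate 8, against 5.47 in the sham mouse. The differences in M2 to M4 were 0.035, -0.17 and -0.0019. The part of tissue from the striatum in the values of channel and receptor genes, several of which striatal neurons also express, was not tested.

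**Figure D3:**
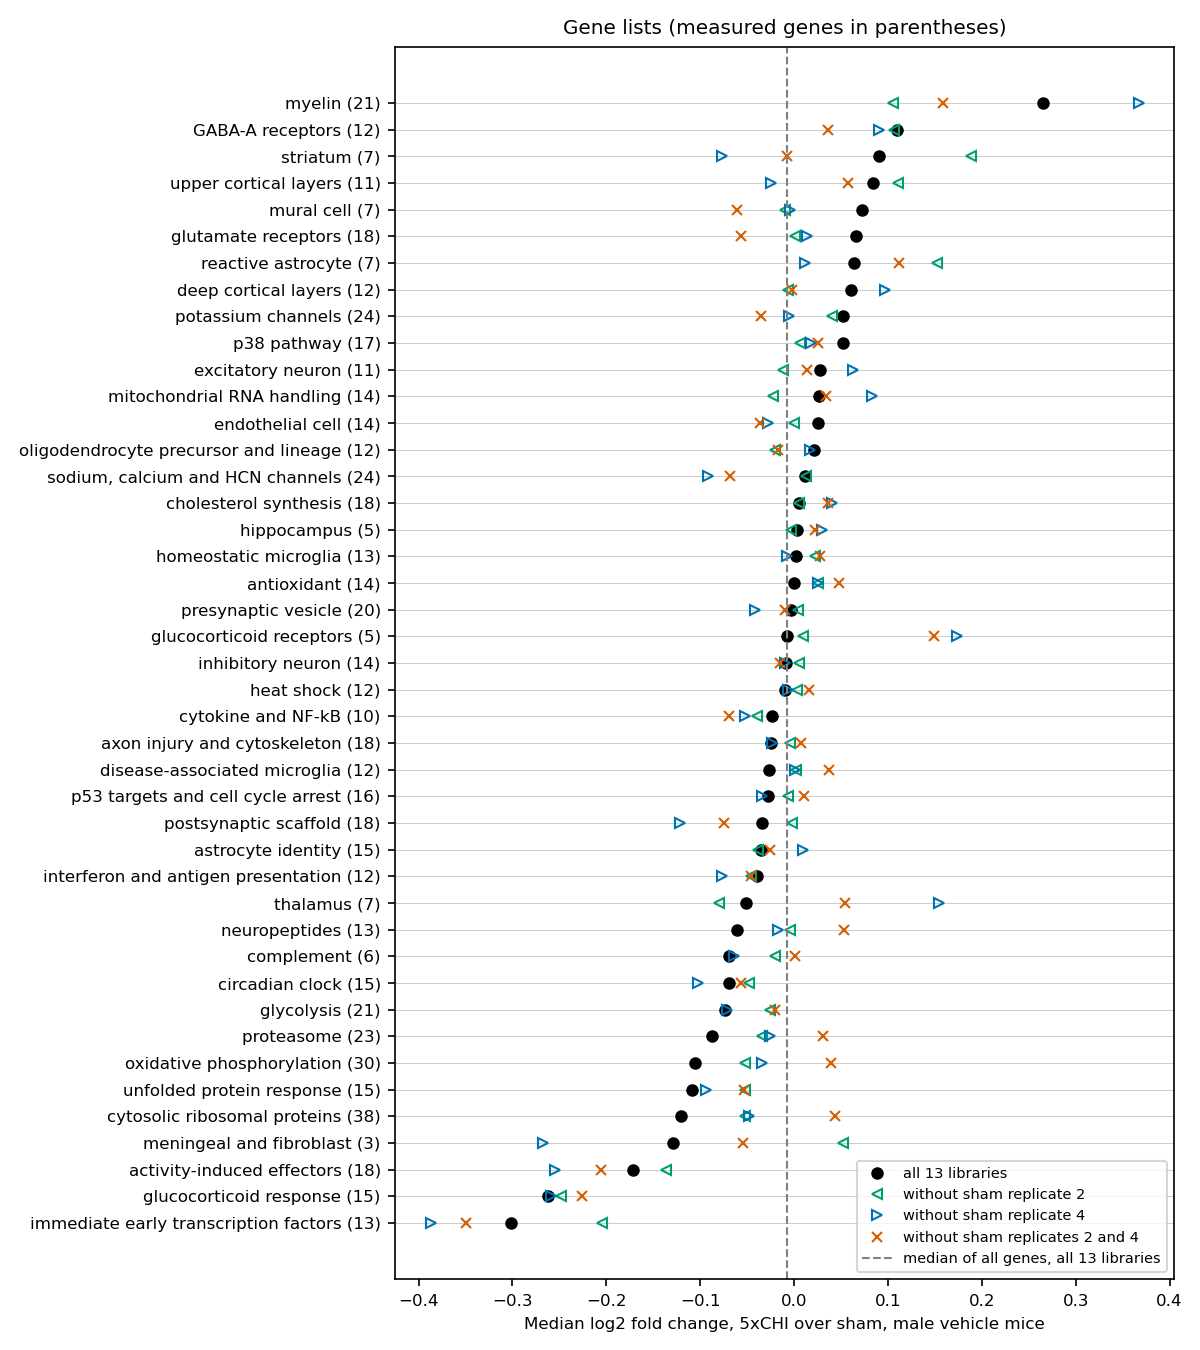
Median log2 fold change of 5xCHI over sham male vehicle mice for the 43 gene lists with measured genes, with all 13 libraries (filled circles) and without sham replicate 2, 4 or both (open symbols and crosses), and a dashed line at the median of all 9636 genes. Glucocorticoid response genes stay between -0.26 and -0.23 in all 4 sets, myelin genes range from 0.10 to 0.37, and oxidative phosphorylation, ribosomal and proteasome genes change sign without both libraries.

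Oxidative phosphorylation, ribosomal and proteasome genes were mostly lower with all libraries and mostly higher without the sham libraries that stood apart. Of 30 measured oxidative phosphorylation genes 27 were lower, with a median log2 fold change of -0.11, against 52.8% of all genes below 0. At an unadjusted p under 0.05, 3 were lower, against 2.93% of all genes. They were led by the complex I gene Ndufs7 at -0.25 ± 0.099, or -0.15 without sham replicates 2 and 4. The complex IV gene Cox5b was at -0.23 ± 0.10, or -0.11 without them. Of 38 cytosolic ribosomal protein genes 37 were lower, with a median of -0.12, and of 23 proteasome genes 20 were lower, with a median of -0.087. Without sham replicates 2 and 4 together, 26 of 30 oxidative phosphorylation genes were higher with a median of 0.04, 30 of 38 ribosomal genes were higher with a median of 0.044, and 19 of 23 proteasome genes were higher with a median of 0.03. The median of glycolysis genes stayed below 0, with 18 of 21 lower and a median of -0.073 with all libraries, and 12 of 21 lower and a median of -0.021 without both. Rpl13, a large subunit gene, had 275 and 253 CPM in sham replicates 2 and 4, against 195, 202 and 198 CPM in sham replicates 1, 3 and 5 and 132 to 234 CPM in injured mice. Rpl13 had a log2 fold change of -0.29 ± 0.12 (SE) with all libraries and -0.14 without both.

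These lists hold short transcripts, with a median of 1232 bases for oxidative phosphorylation, 1101 bases for ribosomal and 1819 bases for proteasome genes, against 3726 bases over all genes. Across 9549 genes with an annotated transcript (99.1%), which are not independent replicates, the log2 fold change had a Spearman correlation of 0.489 with the length of the longest transcript. It was 0.279 without sham replicate 2, 0.238 without replicate 4 and -0.111 without both. The part of transcript length or RNA quality in the values of these lists was not tested.

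Genes of the unfolded protein response were lower in 11 of 15 cases, with a median of -0.11, or -0.054 without both libraries. Creld2, which is released from the endoplasmic reticulum under stress, was at -0.37 ± 0.12, or -0.16 without both, and Xbp1, the factor spliced in that response, at -0.15 ± 0.067, or -0.077 without both. Antioxidant genes had a median of -0.00024, or 0.048 without both, with Gclc, the rate-limiting enzyme of glutathione synthesis, at 0.17 ± 0.074 and Gpx4, which reduces lipid peroxides, at -0.19 ± 0.087. Without both libraries Gclc was at 0.11 and Gpx4 at -0.038. Among genes of mitochondrial RNA handling Fastkd1 was at 0.22 ± 0.10.

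Members of the p38 kinase pathway, the target of the inhibitor used elsewhere in the study, were divided, with 9 of 17 higher and a median of 0.052, or 0.0064 without sham replicate 2, 0.018 without replicate 4 and 0.025 without both. Mapk11, which encodes p38 beta, was at 61.9 to 75.7 CPM in injured mice, with a median of 66.7, and at 86.5, 73.2, 75.8, 71.0 and 78.6 CPM in sham replicates 1 to 5. It was lower in all 4 cohorts, and 7 of 8 injured mice lay below every sham mouse. Its log2 fold change was -0.21 ± 0.067 (SE; unadjusted p = 0.00774, adjusted p = 0.781 by edgeR), or -0.28 without sham replicates 2 and 4. Rps6ka4, a nuclear kinase gene downstream of p38, was at -0.20 ± 0.082.

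**Figure D4:**
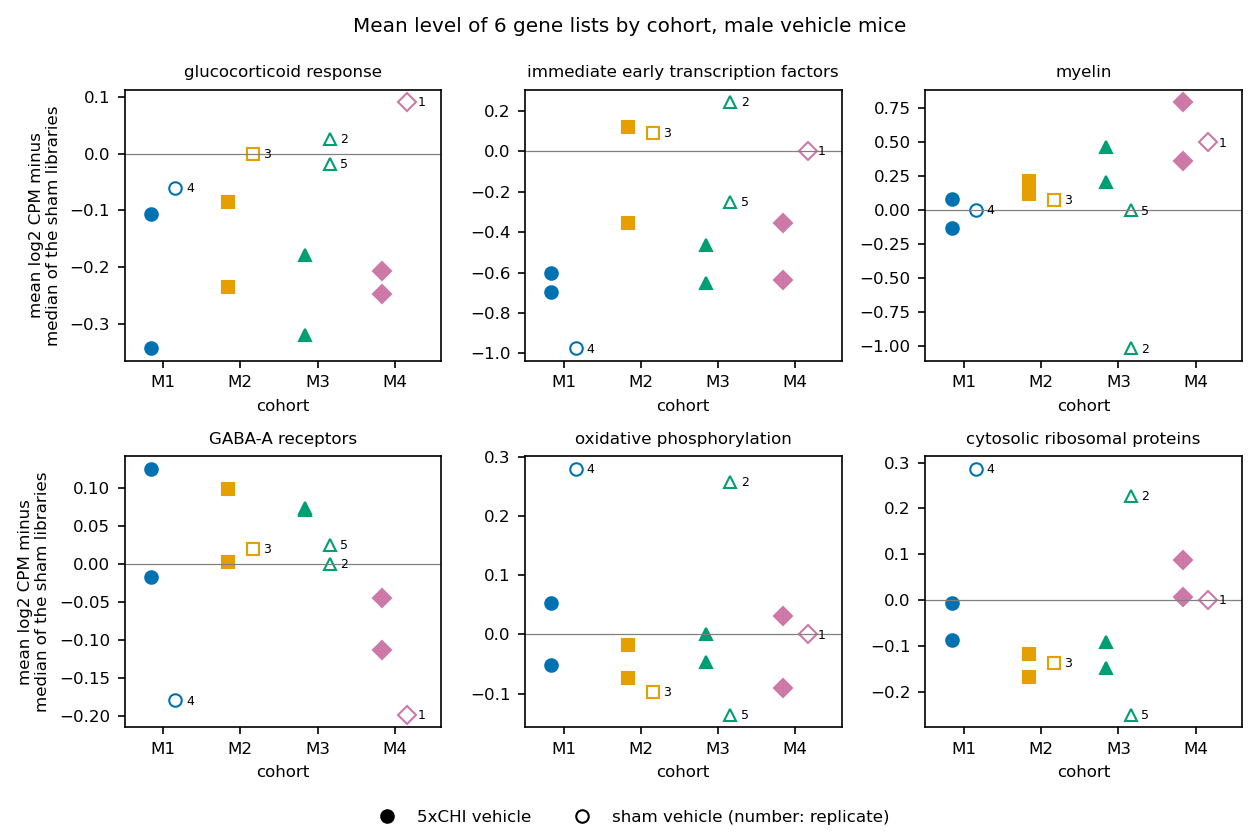
Mean log2 CPM of 6 gene lists in each male vehicle mouse, as the difference from the median of the 5 sham libraries, by cohort, with filled symbols for 5xCHI, open symbols for sham and the sham replicate number beside them. Glucocorticoid response genes are lower in injured mice in every cohort, sham replicate 2 lies at -1.02 for myelin genes, and sham replicate 4 lies at -0.98 for immediate early genes.

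The injury differences of males were set against those of 12 injured and 9 sham female vehicle mice, which share no library with the males. In a joint edgeR fit over the 34 vehicle libraries, with the cohort within each sex as a block, 0 of 9636 genes (0%) had a sex difference that passed adjustment. The smallest adjusted p was 0.904, and 454 genes (4.71%) had an unadjusted p under 0.05. Across the 9636 genes the male and female log2 fold changes had a Spearman correlation of -0.236, and 42.2% had the same sign. Both values used all male vehicle libraries and were not computed without sham replicates 2 and 4, on which many male list medians depend. The correlation of log2 fold change with transcript length was 0.489 in males and 0.0642 in females. Fbxo32, a muscle and brain ubiquitin ligase gene induced in atrophy, had the smallest p. It was at 31.8 to 51.7 CPM in injured males, with a median of 44.4, and at 36.0, 22.8, 37.2, 28.1 and 39.3 CPM in sham males, with 7 of 8 injured mice above every sham mouse. It averaged 36.3 ± 8.29 CPM in injured females (SD, n = 12) and 42.0 ± 8.15 CPM in sham females (SD, n = 9). The log2 fold change was 0.41 ± 0.14 (SE) in males and -0.26 ± 0.098 in females, and the difference was 0.68 ± 0.16 (unadjusted p = 0.000197, adjusted p = 0.904 by edgeR).

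Prps2 was at 0.28 in males and -0.15 in females, a difference of 0.44 ± 0.11 (SE), and Aldh1a1, a retinoic acid synthesis gene, at 0.21 and -0.25, a difference of 0.47 ± 0.13. Ypel2 and the calcium channel subunit gene Cacna2d3 completed the higher genes, with differences of 0.32 ± 0.086 and 0.36 ± 0.10. Lower in males than in females were Ydjc at -0.32 and 0.34, a difference of -0.64 ± 0.17, and Nrarp, a feedback inhibitor of Notch signalling, at -0.28 and 0.21, a difference of -0.48 ± 0.13. The RNA-binding protein gene Celf6 had a difference of -0.49 ± 0.14 and the RNA helicase gene Ddx19a one of -0.29 ± 0.083. Cdkn1a was at -0.51 ± 0.098 in males and 0.012 ± 0.091 in females, with a difference of -0.51 ± 0.15 (unadjusted p = 0.00173, adjusted p = 0.904 by edgeR).

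Gene lists gave the same contrast of signs for some groups. Myelin genes had a median of 0.27 in males and -0.12 in females, where 0 of 21 were higher, and in males the median was 0.10 without sham replicate 2. Immediate early genes had a median of -0.30 in males and 0.11 in females, with 11 of 13 higher in females, against 46% of all genes. Glucocorticoid response genes had a median of -0.26 in males and -0.098 in females, with 9 of 15 lower in females. Sgk1 was lower in both, at -0.39 ± 0.12 and -0.49 ± 0.20, whereas Mt2 was at -0.37 ± 0.064 in males and 0.11 ± 0.10 in females, with a difference of -0.46 ± 0.17 (unadjusted p = 0.00932, adjusted p = 0.904 by edgeR). In males given the p38 inhibitor SB239063, Mt2 averaged 43.1 ± 5.14 CPM in injured mice (SD, n = 8) and 39.8 CPM in 2 sham mice, and Cdkn1a 17.8 ± 4.26 CPM in injured mice (SD, n = 8) and 18.4 CPM in 2 sham mice.

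**Figure D5:**
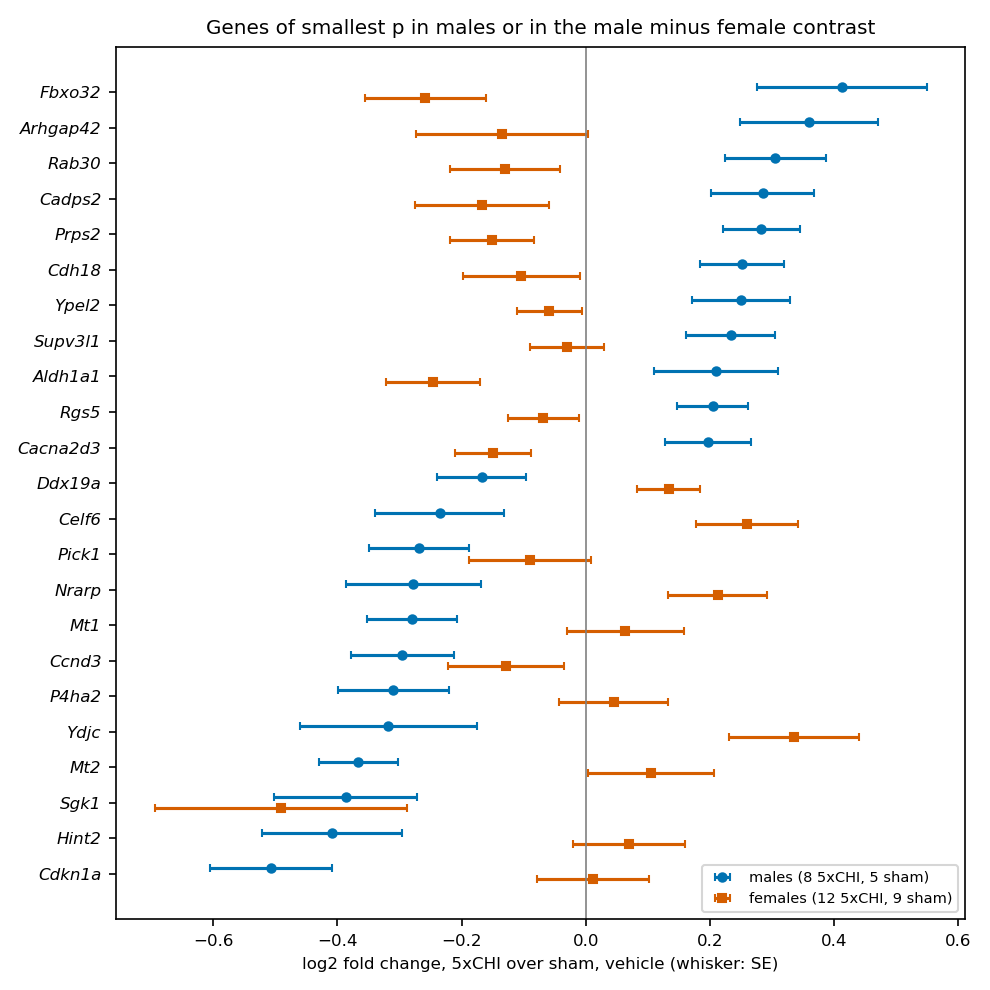
Log2 fold change of 5xCHI over sham in vehicle mice with whiskers of 1 SE, in males (circles) and females (squares), for the genes of smallest p in males or in the contrast of the sexes. Sgk1, Pick1 and Ccnd3 lie below 0 in both sexes, and the other genes that are lower in males lie above 0 in females.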

How the data were processed

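The authors deposited 1 table of raw gene counts for 58 libraries, with genes given by symbol, and 13 of these libraries form the comparison described above. Per the labels' protocols, RNA was extracted with Qiagen RNeasy, selected for poly(A) and made into NEBNext Ultra II Directional libraries. The tools STAR, featureCounts and DESeq2 and the mouse build GRCm39 (mm39) are listed per the submitters' processing notes. Versions, settings, strand counting, annotation and the rule that left 9636 genes in the table are stated in no source used here. The smallest count in the table is 101, so genes of low expression were not analysed here, and genes with near-identical copies or overlapping neighbours may share reads.

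Injury was tested with edgeR 4.0.16 (quasi-likelihood, robust, TMM) in R 4.3.3 on the 13 libraries with the cohort as a block, and p-values were adjusted by Benjamini-Hochberg over 9636 genes with a threshold of 0.05. Male minus female effects came from a second edgeR fit over 34 vehicle libraries, so they can differ slightly from the difference of the separate fits. CPM were scaled by TMM over all 58 libraries, and log2 CPM used a prior count of 2. Cohort differences are those of mean log2 CPM. Replicates are separate samples per the labels, and no pair within a group agreed within sampling noise (the closest injured pair had a chi-square of 19.1 per degree of freedom and the closest sham pair one of 15.1). Since separate animals are named only through sample labels, p-values measure the spread between these samples.

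The members and gene lists were chosen with earlier results of these data known, so list counts are descriptions. Genes were named by rule: with none passing, the 8 of smallest p per direction, up to 4 measured genes per list, and 5 per direction for male minus female. Other named genes are stated as chosen after their values were seen, and so were Tmem119, Vim and Tapbp. Alternatives were DESeq2 1.42.0, limma 3.58.1 voom with quality weights, DESeq2 size factors, a mean count of at least 1000, no cohort term, a replicate block, all 58 libraries and each library left out. Promoters are RefSeq windows on GRCm38.p6, of which the 250 bases upstream were searched on both strands, whereas the 50 bases after the start were not used. The count table's build differs, so no coordinate was taken across builds. Transcript lengths are those of GENCODE vM21, matched by symbol. The analysis was tested on simulated data. Some members of the gene lists are not reported here by name.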

Additional observations from a re-analysis of the deposited data

Results flagged for a closer look

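Single samples far from the rest of their group were looked for in 164 pairs of a gene and a group and in 86 pairs of a gene list and a group, by Dixon's test at its 95% critical value. It marked 14 pairs, and chance alone marks about 1 in 20 groups. None of these values was explained here.

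Injured replicate 8 was high for Sgk1, at 114 CPM against 71.3 CPM in the nearest injured mouse. Injured replicate 1 was high for Egr3, at 257 CPM against 185 CPM. Among sham mice, replicate 1 was high for Mt2, at 66.6 CPM against 51.5 CPM in the nearest sham mouse. Sham replicate 2 was low for Rab30, at 37.1 CPM against 44.8 CPM, and high for Jund, at 127 CPM against 79.1 CPM. Sham replicate 4 was low for Egr3, at 151 CPM against 238 CPM, and sham replicate 5 was low for Vim, at 26.6 CPM against 35.9 CPM.

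In mean log2 CPM over a list, injured replicate 1 was high for immediate early transcription factors, at 6.5 against 6.02, and for activity-induced effectors, at 6.77 against 6.51. Injured replicate 8 was high for endothelial genes, at 5.19 against 5, and for circadian clock genes, at 6.88 against 6.66. Injured replicate 6 was high for striatal genes, at 6.75 against 6.06. Sham replicate 2 was high for p53 targets, at 5.47 against 5.38, and low for deep layer genes, at 5.13 against 5.51.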

How the results depend on the processing

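The count of 0 genes passing for injury against sham became 3 with DESeq2 (Mt2, Cdkn1a and Prps2) and 1 with limma voom and quality weights (Mt2), and it was 0 under each other alternative run: DESeq2 size factors in edgeR, a mean count of at least 1000, no cohort term, all 58 libraries, each library left out (0 to 0) and both sham replicates 2 and 4 left out. With the replicate block in place of the cohort it was also 0, with 79 genes at an unadjusted p under 0.05 by edgeR, against 442. Same-numbered mice did not deviate together (correlations -0.558, -0.596, -0.331, 0.186 and 0.345), so the numbers do not pair the samples. The count for male minus female was 0 under every alternative run for it. At an unadjusted p under 0.05, 203 to 860 genes were found with 1 library left out and 716 without sham replicates 2 and 4.

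Of the log2 fold changes of 75 genes, 2 turned round: Npas4 to 0.091 with the replicate block and Kcna1 to -0.0162 without sham replicates 2 and 4. The cause was not tested. Medians of the 43 lists were sensitive to the sham libraries: 13 changed sign without sham replicate 2, 12 without replicate 4 and 20 without both. Fewer values, 8 under the other alternatives and 12 with 1 library left out, shifted by more than the SD of the list's differences between the 4 cohorts, among them glucocorticoid receptors at 0.174 and thalamus at 0.154 without sham replicate 4, and disease-associated microglia at 0.0368 without both.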
